A study of Mus musculus with 12 samples.

Results

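The activin genes are a family of 8 genes, picked by symbol: the ligand subunits Inhba and Inhbb, the type I receptors Acvr1, Acvr1b and Acvr1c, the type II receptors Acvr2a and Acvr2b, and the antagonist Fst. All 8 were among the 78298 genes of the deposited table, and all 8 were among the 18600 that passed a filter on low counts and were tested. The family was chosen because Inhba had already been seen to be higher in stressed mice in these same libraries, so the values of Inhba are given below as a description without a test. Hippocampal poly(A) RNA of male C57BL/6 mice, bought at 6 to 8 weeks of age and preselected on their sucrose preference, gave 12 libraries, which form 3 groups of 4. Treatment mice had 28 days of chronic unpredictable mild stress (CUMS), a schedule of changing mild stressors used as a depression model, and over the last 14 of those days also received poricoic acid A once daily by gavage (20 mg/kg). Poricoic acid A is a triterpenoid made by Poria cocos, a medicinal fungus. Model mice had the same 28 days of stress and received saline, and Control mice had saline without any stress. The labels do not say that each library is 1 mouse, so the spread behind each p-value is that among these samples and may be technical.

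Activins are dimers of beta subunits: a pair of beta A chains, encoded by Inhba, makes activin A, and beta B chains, encoded by Inhbb, make activin B. The dimer binds a type II receptor kinase, which activates a type I receptor, and the signal passes to Smad2 and Smad3 with Smad4 in the nucleus. Follistatin, the product of Fst, binds activin and keeps it from its receptors. In the rodent forebrain Inhba is known as a gene that neuronal activity induces, and activin A is known to affect dendritic spines, excitatory synapses and the survival of neurons.

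Sequences just upstream of the ligand genes and of the most abundant receptor gene are shown because Inhba is the member whose level led to the choice of the family, Inhbb encodes the other beta subunit and Acvr1b is the receptor of highest FPKM. They run from 250 bases before the transcript start to 50 bases after it, 5′ to 3′, and were taken from RefSeq on GRCm38.p6, an earlier build than the GRCm39 of the deposited table. Capitals mark matches on either strand to TATAAA, to GGGCGG and to the consensus of the MEF2 transcription factors, which overlaps TATAAA where both are met. The windows are chr13:16011601-16011900 (plus strand) for Inhba, chr1:119422199-119422498 (minus strand) for Inhbb and chr15:101173822-101174121 (plus strand) for Acvr1b.
Inhba: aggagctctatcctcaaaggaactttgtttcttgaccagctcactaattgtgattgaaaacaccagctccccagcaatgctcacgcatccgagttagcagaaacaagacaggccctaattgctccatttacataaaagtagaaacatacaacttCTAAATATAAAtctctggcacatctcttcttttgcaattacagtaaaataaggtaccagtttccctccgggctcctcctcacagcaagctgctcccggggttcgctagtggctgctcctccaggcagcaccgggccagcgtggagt
Inhbb: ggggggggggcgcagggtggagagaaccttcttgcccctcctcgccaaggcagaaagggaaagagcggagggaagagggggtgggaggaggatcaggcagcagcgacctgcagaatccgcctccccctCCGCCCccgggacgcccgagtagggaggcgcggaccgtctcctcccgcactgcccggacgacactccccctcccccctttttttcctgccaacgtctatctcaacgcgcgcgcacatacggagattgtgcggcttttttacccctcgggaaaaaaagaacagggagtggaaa
Acvr1b: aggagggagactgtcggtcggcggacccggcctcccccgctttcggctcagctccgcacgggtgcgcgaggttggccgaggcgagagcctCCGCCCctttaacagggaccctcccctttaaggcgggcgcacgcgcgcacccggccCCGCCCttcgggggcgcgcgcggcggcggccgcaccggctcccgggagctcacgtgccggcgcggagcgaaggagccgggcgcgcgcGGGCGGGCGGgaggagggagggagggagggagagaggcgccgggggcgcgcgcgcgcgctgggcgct

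The Inhba window held 1 TATAAA, 91 bases before the start, a word present in 13.6% of the 32851 promoter windows of the same length, and 1 MEF2 consensus, 96 bases before the start, present in 3.19% of them. Its G and C content was 47.7%, below the 64.3% of Inhbb and the 79.7% of Acvr1b, with a median of 52.7% over all windows. It held no GGGCGG, a word present in 35.7% of all windows. Inhbb held 1 and the windows of Acvr1, Acvr1b, Acvr2a and Acvr2b held 6, 4, 3 and 3. Of the 2 windows listed for Acvr1c, 1 held 3 and the other none. The cyclic AMP response element TGACGTCA (1.79% of all windows) and the AP-1 word TGANTCA (7.81%) were in none of the windows of the 7 members that have an entry. These are matches of letters and were not tested as sites.

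In the coordinates of the deposited table, for which the submitters' processing notes name GRCm39, Inhba lies on chromosome 13 from 16186436 to 16206206 and Fst on the same chromosome from 114588826 to 114595487. Inhbb lies on chromosome 1 from 119343195 to 119349978. Acvr1 (58336446 to 58406284), Acvr1c (58157465 to 58247907) and Acvr2a (48704121 to 48793281) are on chromosome 2. Acvr1b is on chromosome 15 (101071948 to 101111565) and Acvr2b on chromosome 9 (119231184 to 119262581). All 8 are annotated as protein-coding. Acvr2a overlaps the end of Orc4, which had 13530 counts over the 12 libraries. Whether reads were counted by strand is not given in the sources used here, so reads of the shared stretch could not be assigned with certainty. The other overlapping genes had at most 15 counts over all libraries.

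The 12 libraries held between 17083260 and 27479083 estimated counts. Markers of the hippocampal fields were present in every library: Prox1 of dentate granule cells stood at 12.99 to 23.45 FPKM (fragments scaled to gene length and library depth), Wfs1 of CA1 at 29.23 to 51.67 FPKM and Rgs14 of CA2 at 25.65 to 41.03 FPKM. None of the marker genes listed for 13 cell types and neighbouring tissues was at 0 in all libraries. Tissue that adjoins the hippocampus varied between libraries, and choroid plexus markers also differed between groups. The summed level of 8 choroid plexus markers was 459 to 1430 CPM (counts scaled to a common library size after TMM adjustment) in Treatment, 583 to 844 CPM in Model and 702 to 2296 CPM in Control. These sums overlapped between groups. Against Control all 8 markers had negative log2 fold changes, with a median of -1.13 in Model and -0.95 in Treatment. The median over all tested genes was -0.01 in both comparisons. Control replicate 1 had 208 CPM of 6 thalamus and habenula markers, against 60.3 to 97.6 CPM in the other 11 libraries. In bulk RNA of this kind, fewer cells of a type and less RNA per cell cannot be told apart.

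Acvr1b, Acvr2a and Acvr1 were more abundant than either ligand subunit, and Fst had the lowest mean of the members. On the FPKM scale, which allows for gene length, Acvr1b, the type I receptor through which activin A chiefly signals, averaged 26.3 ± 1.32 FPKM over the 12 libraries (SD). Acvr2a, the more abundant type II receptor, averaged 12.6 ± 0.822 FPKM and Acvr1, a type I receptor best known for BMP signals, 12.0 ± 0.795 FPKM. The lowest Acvr1b value, 23.58 FPKM, was above the highest of Acvr2a, 14.09 FPKM, and the lowest of Acvr1, 10.45 FPKM, was above the highest of Acvr1c, 3.286 FPKM. Between Acvr2a and Acvr1 the values overlapped, so their order is not set beyond their spread. Acvr1c, the type I receptor used by activin B and Nodal, averaged 2.71 ± 0.353 FPKM, Acvr2b, the second type II receptor, 1.94 ± 0.454 FPKM, Inhba 1.85 ± 0.561 FPKM and Inhbb 1.72 ± 0.191 FPKM. Each of these 4 overlapped its neighbours in the order. Fst averaged 0.811 ± 0.345 FPKM, and its 20 to 62 counts a library leave a large counting error.

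**Figure D1:**
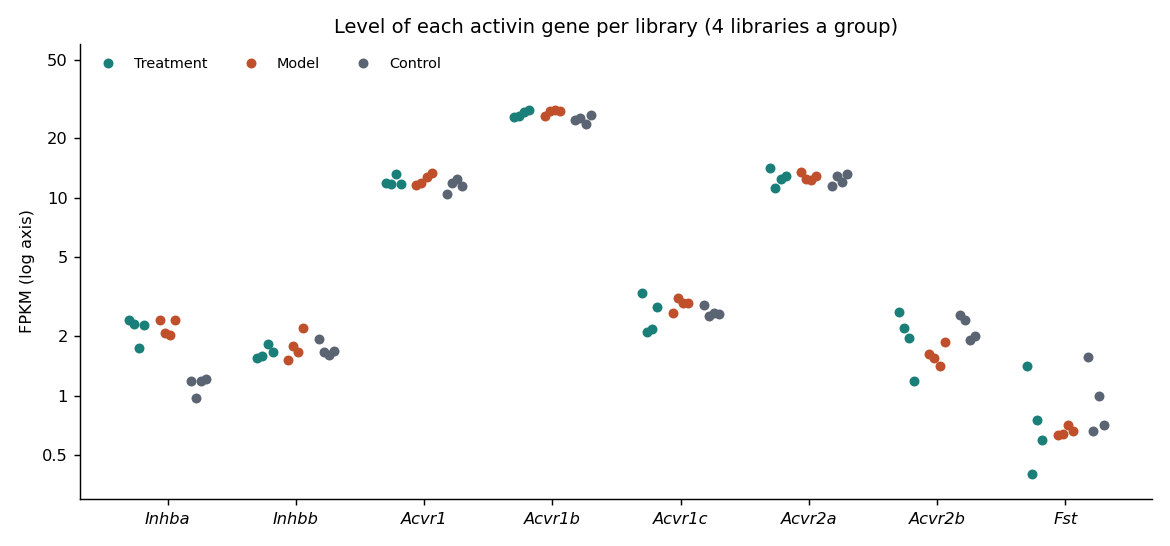
FPKM of the 8 activin genes in each library (vertical log axis), with Treatment, Model and Control from left to right within each gene and 1 point per library. Acvr1b lies between 23.58 and 27.90 FPKM in all 12 libraries, and Inhba lies at 1.747 FPKM or above in the 8 stressed libraries and at 1.214 FPKM or below in the 4 Control libraries.

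The ligand subunits overlapped in both stressed groups and not in Control. In Treatment Inhba stood at 1.747 to 2.401 FPKM and Inhbb at 1.556 to 1.823 FPKM, which overlap, so their order is not set. In Model they stood at 2.020 to 2.414 FPKM and 1.509 to 2.199 FPKM, which overlap as well. In Control Inhba was below Inhbb in every library, at 0.968 to 1.214 FPKM against 1.610 to 1.923 FPKM. With the gene length held at its median, as described below for Inhba, Inhba was also below Inhbb in Treatment replicates 2, 3 and 4 and in Model replicate 1, and in all 4 Control libraries.

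Inhba was higher in both stressed groups than in Control, with or without the compound. Its level in Treatment replicates 1 to 4 was 14.72, 8.869, 10.66 and 9.177 CPM, in Model 8.985, 12.78, 12.58 and 14.93 CPM, and in Control 7.185, 5.899, 7.219 and 7.440 CPM. All 8 stressed libraries lay above all 4 Control libraries, and the Treatment and Model libraries overlapped. The raw counts behind these values were 175 to 287 in Treatment, 202 to 348 in Model and 124 to 182 in Control.

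Treatment averaged 10.8 ± 2.69 CPM, Model 12.3 ± 2.46 CPM and Control 6.94 ± 0.700 CPM (SD, n = 4 each). In the edgeR fit its log2 fold change was 0.65 in Treatment against Control, 0.83 in Model against Control and -0.18 in Treatment against Model. The last value was -0.37 without Treatment replicate 1 and -0.05 without Treatment replicates 2 and 3. Among all tested genes, 7.24% had no overlap in CPM between Treatment and Control and 11.4% had none between Model and Control, and nothing is read from this for Inhba. Treatment and Model are both compared with the same Control libraries, so their similar fold changes are not independent of each other. The part of the choroid plexus difference in the Inhba values was not tested.

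On the deposited FPKM scale the stressed groups were closer to each other than on the CPM scale. Treatment averaged 2.18 ± 0.294 FPKM, Model 2.23 ± 0.211 FPKM and Control 1.14 ± 0.115 FPKM (SD, n = 4 each). The ratio of mean FPKM in Treatment to that in Model was 0.977, where the ratio of mean CPM was 0.881. Against Control the FPKM ratios were 1.91 for Treatment and 1.96 for Model, and the CPM ratios 1.56 and 1.78.

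The gene length behind the FPKM was not the same in all libraries. The count, the FPKM and the library total together imply a length of 6089 to 6143 bases for Inhba in 9 libraries. In Treatment replicates 2 and 4 the implied length was 3894 and 3969 bases, and in Model replicate 1 it was 3734 bases. In all 4 Control libraries it was 6131 to 6142 bases. The 3 libraries with the short length had the lowest Inhba CPM of the stressed libraries, 8.869 to 9.177 CPM against 10.66 CPM or more in the other 5.

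GENCODE vM21, an earlier annotation on GRCm38, lists 2 transcripts of Inhba, of 6390 bases in 5 exons and of 1529 bases in 3 exons. The table holds no counts per transcript, so transcript use was not measured. At the median length of 6110 bases for all libraries, Inhba would stand at 2.401, 1.466, 1.741 and 1.473 FPKM in Treatment replicates 1 to 4, at 1.472, 2.090, 2.019 and 2.410 FPKM in Model and at 0.971 to 1.220 FPKM in Control. All stressed libraries remain above all Control libraries on this scale too. With the length of each library as an offset in edgeR, an alternative chosen after seeing the data, the log2 fold change of Inhba was -0.06 in Treatment against Model, 1.00 in Model against Control and 0.94 in Treatment against Control.

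**Figure D2:**
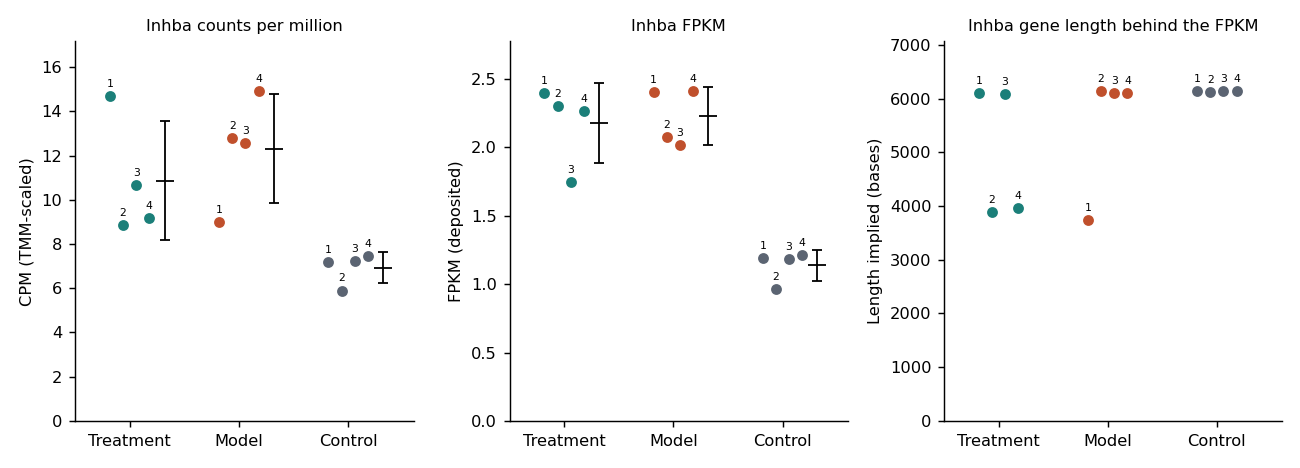
Inhba in each library as TMM-scaled CPM (left), deposited FPKM (middle) and the gene length in bases implied by count, FPKM and library total (right), by group. Points are libraries with their replicate number, and bars beside the points in the left and middle panels give mean ± SD for n = 4. The implied length is 3734 to 3969 bases in Model replicate 1 and Treatment replicates 2 and 4 and 6089 bases or more in the other 9 libraries.

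Such shifts in length also touched 2 other members. The longest implied length over the shortest was 1.88 for Acvr2b (1517 to 2847 bases) and 2.02 for Fst (1269 to 2564 bases), against 1.65 for Inhba and at most 1.08 for the other 5. Of 18320 genes with a length in every library, 17.8% had a ratio above 1.5. For Acvr2b and Fst differences are therefore given below in CPM. The ratio of mean FPKM in Model to that in Control was 0.725 for Acvr2b and 0.673 for Fst, where the ratio of mean CPM was 0.78 and 0.742.

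Inhbb, the beta B subunit, was not called in any comparison, where a call means that edgeR's quasi-likelihood test, adjusted after Benjamini and Hochberg across the 18600 genes, gave a p below 0.05. It stood at 6.204, 6.183, 7.222 and 6.807 CPM in Treatment, at 6.049, 7.107, 6.711 and 8.838 CPM in Model and at 7.574, 6.623, 6.404 and 6.704 CPM in Control. The 3 groups overlapped. Its log2 fold change was -0.12 ± 0.13 (SE) in Treatment against Model (adjusted p = 0.672 in edgeR), 0.07 ± 0.12 in Model against Control (adjusted p = 0.836) and -0.05 ± 0.13 in Treatment against Control (adjusted p = 0.918). The 95% interval of Model against Control was -0.19 to 0.34. Whether the subunits differ in their change was not tested.

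No receptor passed the test in any comparison in edgeR or in DESeq2. Acvr1b stood at 105.5 to 118.5 CPM in Treatment, 108.7 to 117.0 CPM in Model and 97.63 to 108.9 CPM in Control. Model replicate 1 (108.7 CPM) and Control replicate 4 (108.9 CPM) were the only libraries through which Model and Control overlapped. Its log2 fold change in Model against Control was 0.14 ± 0.06 (adjusted p = 0.238 in edgeR, 95% interval 0.02 to 0.26), and in Treatment against Control 0.10 ± 0.06 (adjusted p = 0.469). In Treatment against Model it was -0.04 ± 0.06 (adjusted p = 0.748), with an interval of -0.16 to 0.08.

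Acvr1 and Acvr2a overlapped between all groups. Acvr1 stood at 30.66 to 34.90 CPM in Treatment, 29.76 to 34.49 CPM in Model and 27.28 to 32.43 CPM in Control, and Acvr2a at 11.24 to 14.09 FPKM in Treatment, 12.27 to 13.55 FPKM in Model and 11.46 to 13.27 FPKM in Control. Against Control, Model differed by 0.12 ± 0.07 in Acvr1 (adjusted p = 0.480 in edgeR) and by 0.06 ± 0.07 in Acvr2a (adjusted p = 0.734). The intervals of Treatment against Model were -0.17 to 0.14 for Acvr1 and -0.18 to 0.14 for Acvr2a.

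Acvr1c was uneven within Treatment. It stood at 29.12 and 25.33 CPM in Treatment replicates 1 and 4 and at 18.35 and 19.09 CPM in replicates 2 and 3, against 23.31, 27.82, 26.61 and 26.34 CPM in Model and 20.67 to 25.20 CPM in Control. Treatment thus held both the highest and the 2 lowest libraries of the series. Replicates 2 and 3 are those whose library numbers, 1631 and 1636, stand apart from the 1868 to 1898 of the other 10. They also had 1430 and 1093 CPM of choroid plexus markers, against 459 and 492 CPM in Treatment replicates 1 and 4. The part of library number or of that tissue in the result was not tested, and the labels place all libraries in 1 batch. The log2 fold change of Treatment against Model was -0.18 ± 0.12 (adjusted p = 0.478 in edgeR), and 0.06 without these 2 libraries.

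Acvr2b was the only receptor whose groups did not overlap in a comparison. It stood at 5.487, 6.031, 2.980 and 3.274 CPM in Treatment, at 4.359, 4.407, 3.775 and 3.089 CPM in Model and at 5.486, 5.537, 4.599 and 4.415 CPM in Control. Every Model library was below every Control library, though the nearest libraries (4.407 CPM in Model and 4.415 CPM in Control) almost met, and the counts were only 72 to 98 in Model and 79 to 153 in Control. The log2 fold change of Model against Control was -0.36 ± 0.21 (adjusted p = 0.437 in edgeR). Groups that do not overlap in this comparison were seen in 11.4% of all genes. In Treatment the values ran from below all Control libraries to above them, and its log2 fold change was 0.18 ± 0.21 against Model (adjusted p = 0.711) and -0.18 ± 0.21 against Control (adjusted p = 0.766). Single libraries set these values: without Treatment replicate 1 or 2 or Model replicate 4 that against Model was 0.07, 0.0032 and 0.08, and without Treatment replicate 3 or 4 it was 0.33 and 0.31. Without Treatment replicate 1, 2, 3 or 4 the value against Control was -0.30, -0.35, -0.03 and -0.04.

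Fst was low throughout and its highest library was Control replicate 1. It stood at 1.014 to 1.795 CPM in Treatment, 1.156 to 1.864 CPM in Model and 3.010, 1.050, 1.979 and 1.676 CPM in Control replicates 1 to 4. The groups overlapped. Control replicate 1 is also the library with 208 CPM of thalamus and habenula markers, and the part of that tissue in the Fst value was not tested. The log2 fold change was -0.41 ± 0.30 in Model against Control (adjusted p = 0.556 in edgeR), -0.37 ± 0.30 in Treatment against Control (adjusted p = 0.637) and 0.04 ± 0.31 in Treatment against Model (adjusted p = 0.964). Without Control replicate 1 the values against Control were -0.11 in Model and -0.07 in Treatment, and without Control replicate 2 they were -0.63 and -0.59. The value of Treatment against Control was -0.22 without Treatment replicate 2. The interval of Treatment against Model was -0.61 to 0.69.

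**Figure D3:**
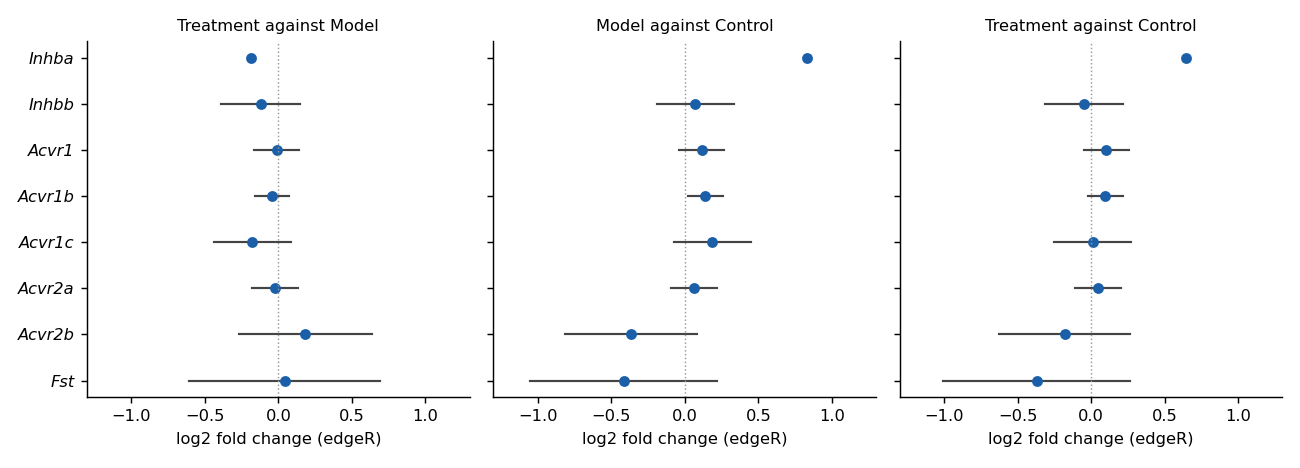
Log2 fold change (horizontal axis) of each activin gene in the 3 comparisons, with 95% intervals from the edgeR fit as lines, except for Inhba, which is shown as a point without interval. Inhba lies at 0.83 in Model against Control and 0.65 in Treatment against Control, and the 7 other members lie between -0.41 and 0.19 in all 3 comparisons.

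Over the 8 members the median log2 fold change was -0.03 in Treatment against Model, with 2 positive and 6 negative values, against a median of 0.00 over all tested genes. It was 0.09 in Model against Control, with 6 positive and 2 negative values, against -0.01 over all genes. In Treatment against Control it was 0.03, with 5 positive and 3 negative values, against -0.01 over all genes. These medians include Inhba, whose level led to the choice of the family. Without Inhba the medians were -0.02, 0.07 and 0.01 in these comparisons, with 2, 5 and 4 positive values and 5, 2 and 3 negative ones. Of the 7 members other than Inhba, 0 were called in any comparison in edgeR or in DESeq2. DESeq2 gave Fst no adjusted p in Model against Control or in Treatment against Control. The count at an unadjusted p under 0.05 was 0 in Treatment against Model, 1 in Model against Control and 0 in Treatment against Control. Over all 18600 tested genes 2896 were at such a p in edgeR in Model against Control, so nothing is read from the 1. Over all genes 1.88% were called in Treatment against Model (1.18% higher and 0.704% lower), 0.79% in Model against Control (0.339% higher and 0.452% lower) and 0.102% in Treatment against Control (0.0645% higher and 0.0376% lower). Treatment and Model groups overlapped in all 7, where 9.5% of all genes had no overlap (5.14% higher and 4.36% lower in Treatment). Model and Control did not overlap in 1 of the 7, Acvr2b, which was lower, where 5.95% of all genes were higher and 5.46% lower without overlap. Treatment and Control overlapped in all 7, where 3.99% of all genes were higher and 3.24% lower without overlap.

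Beyond the family, 60 further genes of the activin, TGF-beta and BMP pathways were listed by their roles, of which 59 were in the table and 51 were tested. In Treatment against Model 2 of the 51 rose, 0 fell and 49 did not pass, where 1.18% of all genes were called higher. In Model against Control 0 passed in edgeR, with 11 at an unadjusted p under 0.05 and 3 called by DESeq2. Over all 18600 tested genes 2896 were at such a p in edgeR in that comparison, and DESeq2 called 751 genes. In Treatment against Control 0 passed in edgeR, with 9 at an unadjusted p under 0.05 and 1 called by DESeq2. Nothing is read from the counts at an unadjusted p or from DESeq2, whose calls over all genes are given in the last section. The medians of the 51 were 0.01, -0.02 and 0.00 in these comparisons, against 0.00, -0.01 and -0.01 over all genes.

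Among the ligands and subunits that share activin's partners, Inha was the gene that rose after the compound. Inha encodes the alpha subunit of inhibin, which pairs with the beta chains of Inhba or Inhbb to form inhibins, the opponents of activin. It stood at 18.87, 20.42, 19.44 and 22.06 CPM in Treatment, at 15.61, 13.11, 13.47 and 16.00 CPM in Model and at 15.58, 17.77, 17.70 and 19.42 CPM in Control. Every Treatment library was above every Model library, as for 5.14% of all genes, and Control lay between them and overlapped both. The log2 fold change was 0.47 ± 0.09 in Treatment against Model (adjusted p = 0.0229 in edgeR), -0.27 ± 0.09 in Model against Control (adjusted p = 0.153) and 0.20 ± 0.09 in Treatment against Control (adjusted p = 0.343). The call ended when Model replicate 2 or 3 or Treatment replicate 2 or 4 was left out, and also without Treatment replicates 2 and 3 together, and without Model replicate 2 or 3 no gene of the table passed in edgeR (2631 and 2812 genes at an unadjusted p under 0.05).

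On the FPKM scale Inha, at 14.4 FPKM over the 12 libraries, was far above the beta subunits. Gdf11, a ligand of the same type II receptors, stood at 20.82 to 24.93 CPM in Treatment, 25.01 to 30.24 CPM in Model and 26.67 to 31.02 CPM in Control (-0.22 ± 0.08 in Treatment against Model, adjusted p = 0.146). Bmp6 stood at 7.435 to 11.72 CPM in Treatment, 8.095 to 9.696 CPM in Model and 10.10 to 17.58 CPM in Control (-0.61 ± 0.16 in Model against Control, adjusted p = 0.0827). Its highest libraries, Control replicates 2 and 3, also had the highest sums of choroid plexus markers (2103 and 2296 CPM), whose part in the Bmp6 values was not tested. Of this list of 13 genes 8 were tested, and Inhbc, Inhbe, Nodal, Gdf1 and Gdf3 had at most 16 counts in any library.

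Pmepa1 was the second pathway gene to rise after the compound. It encodes a membrane protein that TGF-beta signals induce and that limits Smad signalling in turn. It stood at 38.76, 35.88, 37.42 and 39.38 CPM in Treatment, at 29.13, 27.49, 27.87 and 31.28 CPM in Model and at 30.83, 28.48, 27.89 and 31.72 CPM in Control. Every Treatment library was above all 8 others, and Model and Control overlapped. Over all genes 5.14% were higher without overlap in Treatment against Model and 3.99% in Treatment against Control. The log2 fold change was 0.39 ± 0.07 in Treatment against Model (adjusted p = 0.0174 in edgeR), 0.35 ± 0.07 in Treatment against Control (adjusted p = 0.054) and -0.04 ± 0.07 in Model against Control (adjusted p = 0.837). The call in Treatment against Model ended without Model replicate 2 or 3 and held without any other single library.

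Several marker lists also differed between Treatment and Model, the neocortical and endothelial sums upward and the dentate granule cell sum downward. The sum of 8 neocortical markers was 351 to 439 CPM in Treatment, 287 to 344 CPM in Model and 285 to 356 CPM in Control. That of 6 endothelial markers was 163 to 196 CPM in Treatment, 140 to 151 CPM in Model and 134 to 151 CPM in Control. That of 8 dentate granule cell markers was 552 to 582 CPM in Treatment, 667 to 784 CPM in Model and 585 to 704 CPM in Control. The part of these tissues and cells in the changes of Inha and Pmepa1 was not tested.

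Smad2, Smad3 and Smad4 did not pass in any comparison in edgeR, and DESeq2 called 1 of them in Model against Control. Smad3, the receptor-activated Smad of highest FPKM in the list, stood at 70.49 to 80.09 CPM in Treatment, 77.14 to 86.58 CPM in Model and 69.09 to 72.60 CPM in Control (0.20 ± 0.06 in Model against Control, adjusted p = 0.105 in edgeR). All Model libraries were above all Control libraries, as for 5.95% of all genes. Smad2 and Smad4, which were added to the named genes after their values were seen, differed between Model and Control by -0.02 ± 0.08 (adjusted p = 0.928) and 0.14 ± 0.07 (adjusted p = 0.343). Ski, a corepressor of Smads, and Zfyve9, an endosomal anchor that presents Smads to the receptors, differed by 0.07 ± 0.05 (adjusted p = 0.579) and 0.13 ± 0.07 (adjusted p = 0.371).

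The scaffolds Magi2 and Synj2bp, which bind the tail of Acvr2a, were both higher in every Model library than in every Control library without passing the edgeR test, as 5.95% of all genes were higher without overlap. DESeq2 called 1 of the pair in Model against Control. Magi2 stood at 114.4 to 124.7 CPM in Model and 93.55 to 106.8 CPM in Control (0.23 ± 0.07, adjusted p = 0.104 in edgeR). Synj2bp stood at 40.70 to 45.67 CPM in Model and 36.59 to 39.24 CPM in Control (0.19 ± 0.07, adjusted p = 0.196). In Treatment against Model both had negative values, -0.06 ± 0.07 (adjusted p = 0.678) and -0.16 ± 0.07 (adjusted p = 0.227).

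Furin, which cleaves activin precursors, and the related convertases Pcsk6 and Pcsk7 differed between Model and Control by -0.0027, 0.0253 and -0.0276 on the log2 scale, with adjusted p = 0.991, 0.933 and 0.884 in edgeR. Of 16 extracellular antagonists and coreceptors in the files, 14 were tested and 0 passed in edgeR or DESeq2 in any comparison (4 in Treatment against Model, 3 in Model against Control and 2 in Treatment against Control at an unadjusted p under 0.05). The most abundant by FPKM were Chrd, a BMP antagonist, Fstl1, a relative of follistatin, and Lefty1, an antagonist of Nodal. Lefty1 stood at 3.846 to 7.373 CPM in Treatment, 5.454 to 8.342 CPM in Model and 3.185 to 6.986 CPM in Control, which overlap (0.55 ± 0.23 in Model against Control, adjusted p = 0.270). The other receptors of the TGF-beta and BMP branches numbered 7, and 0 passed in edgeR or DESeq2, with 1 at an unadjusted p under 0.05 in each comparison. Bmpr2, the type II receptor of BMPs with the highest FPKM among them, differed by 0.23 ± 0.08 in Model against Control (adjusted p = 0.191), Bmpr1a by 0.09 ± 0.06 (adjusted p = 0.504) and Tgfbr1 by 0.05 ± 0.08 (adjusted p = 0.840). Over all 18600 tested genes 2896 were at an unadjusted p under 0.05 in edgeR in Model against Control. Nothing is read from the list counts at that p.

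Inhba is also one of a set of genes that neuronal activity induces, and 33 others of that kind were listed, 32 of them tested. Against Control, 3 of them rose in Treatment, where 0.0645% of all genes were called higher, 0 fell and 29 did not pass, with 7 called higher by DESeq2, a median of 0.16 against -0.01 over all genes and 25 positive values. In Model against Control 3 rose, where 0.339% of all genes were called higher, 0 fell and 29 did not pass, with 7 called higher by DESeq2, a median of 0.11 and 21 positive values. Over all genes DESeq2 called 486 higher in that comparison, and its calls in the other comparisons are given in the last section. In Treatment against Model 0 passed in edgeR, and DESeq2 called 3 higher and 1 lower. The median in that comparison was 0.02 against 0.00 over all genes. The first 2 comparisons share the Control libraries, and the part of the choroid plexus difference in them was not tested. The list was written with earlier results of these data known.

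The genes that rose against Control were not called between Treatment and Model in edgeR. Egr3, a transcription factor, stood at 127.3 to 163.5 CPM in Treatment, 108.6 to 152.0 CPM in Model and 87.97 to 94.57 CPM in Control (0.64 ± 0.09 in Treatment against Control, adjusted p = 0.0168 in edgeR; 0.50 ± 0.09 in Model against Control). Fosb, an AP-1 factor, stood at 8.535 to 10.85 CPM in Treatment, 8.807 to 10.96 CPM in Model and 4.175 to 5.899 CPM in Control (0.82 ± 0.13 in Treatment against Control, adjusted p = 0.0272). Nptx2, a secreted pentraxin that gathers AMPA receptors, stood at 28.35 to 38.71 CPM in Treatment, 19.61 to 31.45 CPM in Model and 16.43 to 21.85 CPM in Control (0.77 ± 0.14 in Treatment against Control, adjusted p = 0.0499). In Model against Control Egr3 (adjusted p = 0.0212 in edgeR) and Fosb (0.87 ± 0.13, adjusted p = 0.0111) were also called. That Fosb call held under all 19 alternatives, with adjusted p up to 0.0498. Nptx2 was not called in Model against Control (0.54 ± 0.14, adjusted p = 0.0772 in edgeR), where its groups overlapped.

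The call of Egr3 in Treatment against Control ended without Control replicate 1 or 3, and that in Model against Control without Control replicate 1 or 2 or Model replicate 2, 3 or 4. The Treatment against Control call of Fosb ended without Control replicate 1 or 3, Model replicate 3, or Treatment replicate 1 or 2, and in a fit of only the 8 libraries compared. That of Nptx2 ended without Control replicate 1, 2, 3 or 4, Model replicate 2 or 3, or Treatment replicate 1, 2 or 4. It also ended with RLE scaling (adjusted p = 0.0521 in edgeR), with only the 8 libraries (0.0643) and with the length offset (0.0579). Homer1, a postsynaptic scaffold, stood at 111.6 to 169.2 CPM in Treatment, 111.2 to 182.0 CPM in Model and 84.18 to 99.09 CPM in Control. It was called in Model against Control (0.69 ± 0.14, adjusted p = 0.0316) but not in Treatment against Control (0.55 ± 0.14, adjusted p = 0.109), and the call in Model against Control ended without Control replicate 1, 2 or 4 or Model replicate 2, 3 or 4, and with the length offset (adjusted p = 0.0576 in edgeR).

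Fos, Arc, Npas4 and Bdnf, named whatever their values, did not pass in any comparison in edgeR. Fos, an AP-1 factor, stood at a mean of 4.86 CPM in Treatment, 5.32 CPM in Model and 4.42 CPM in Control, and Arc, a synaptic cytoskeletal gene, at 66.2, 58.3 and 64.9 CPM in the same groups, with no call in edgeR (adjusted p = 0.691 and 0.570 in Model against Control). The Fos interval in Model against Control was wide, -0.31 to 0.87. Npas4, an activity-induced transcription factor, stood at 8.686 to 17.54 CPM in Treatment, 6.338 to 10.05 CPM in Model and 10.50 to 12.26 CPM in Control. Every Model library was thus below every Control library, as for 5.46% of all genes (-0.45 ± 0.19, adjusted p = 0.256 in edgeR). In Treatment against Model its log2 fold change was 0.72 ± 0.19 (adjusted p = 0.0588 in edgeR), with an interval of 0.32 to 1.11, and the groups overlapped. This was the highest value among the 32 tested activity-induced genes in that comparison, of which 18 were positive and 14 negative. Bdnf, a neurotrophin, differed between Model and Control by 0.00 ± 0.12 (adjusted p = 0.997).

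**Figure D4:**
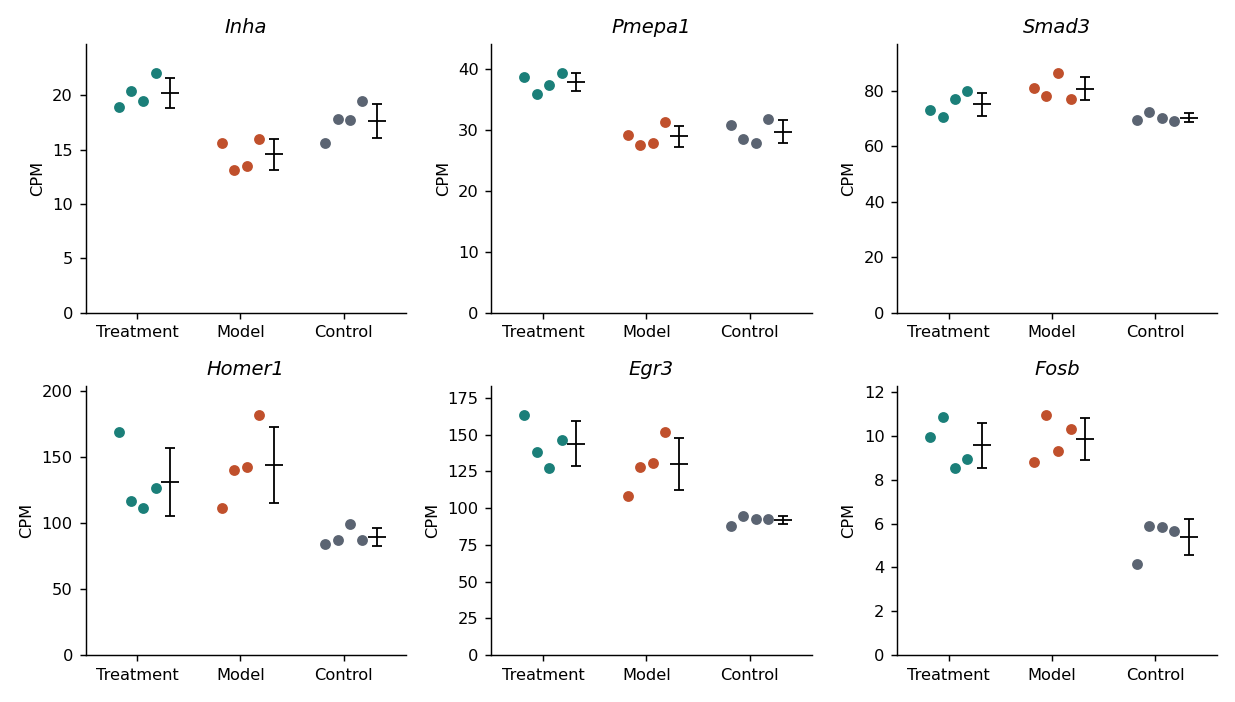
CPM of Inha, Pmepa1, Smad3, Homer1, Egr3 and Fosb by group, with 1 point per library and bars for mean ± SD (n = 4). Every Treatment library is above every Model library for Inha and Pmepa1, and for Homer1, Egr3 and Fosb all 8 stressed libraries are above all 4 Control libraries. Over all genes 5.14% were higher without overlap in Treatment against Model, 5.95% in Model against Control and 3.99% in Treatment against Control.

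Across the 12 libraries Homer1 was the gene most like Inhba in its level, with a Pearson r of 0.946 in log2 CPM among 13671 genes compared. The next were Pphln1, which takes part in gene silencing (0.946), Stam, an endosomal sorting protein (0.944), Crem, a modulator of cyclic AMP responses (0.936), Pcmtd2 (0.934) and Atp2a2, the calcium pump of the endoplasmic reticulum (0.923). The libraries share the group differences that such an r reflects. With group means taken off, the genes most like Inhba were Stam (0.972), Mex3c, an RNA-binding ubiquitin ligase (0.971), the zinc finger gene Zfp995 (0.959), Ptbp3, an RNA-binding splicing regulator (0.940), Desi2 (0.934) and Carnmt1, a methyltransferase (0.931). These are the highest values of a search over all genes and are given as a description.

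The other members were less like it. In log2 CPM the r with Inhba was 0.601 for Acvr1b, 0.579 for Acvr1, 0.564 for Acvr1c, 0.364 for Acvr2a, 0.311 for Inhbb, -0.017 for Fst and -0.425 for Acvr2b. Within groups it was 0.651 for Acvr1c, 0.551 for Fst, 0.438 for Inhbb and between -0.109 and 0.318 for the other 4. Over the 32 activity-induced genes the within-group r ran from -0.742 (Jun) to 0.850 (Nptx2), with a median of 0.320 and 25 positive values. For scale, the within-group r of 0.02 for Acvr1b ranked 6250 among the 13671 genes compared. The activity-induced genes were listed with earlier results of these data known. Of the genes described above the within-group r was 0.836 for Homer1, 0.796 for Bdnf, 0.723 for Egr3, 0.508 for Arc, 0.355 for Fos, 0.136 for Fosb and 0.086 for Npas4. Treatment replicate 1 and Model replicate 4, the libraries with the most Inhba, were also the highest of their groups for Homer1 and for Egr3.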

How the data were processed

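Per the submitters' processing notes, the tools included Salmon 1.10.1 and STAR 2.7.10a for GRCm39, and FastQC 0.12.1, cutadapt 3.4 and Trim Galore 0.6.7 for the reads. The authors deposited estimated counts and FPKM per gene for 12 libraries. Of the nonzero counts 28.8% were not whole (tolerance 1e-06), and they were rounded. Genes were filtered with filterByExpr (18600 kept), scaled by TMM and fitted in 1 edgeR 4.0.16 quasi-likelihood model over the 3 groups (R 4.3.3), with Benjamini-Hochberg adjustment over all tested genes and a threshold of 0.05. CPM use TMM-scaled totals, and SE and 95% intervals come from that fit. FPKM were described and not tested. DESeq2 1.42.0 and other settings were tried as alternatives, and the steps were tested on simulated data. The biological coefficient of variation was 10.7%.

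Members and lists were chosen with earlier results of these data known. Named genes were all 8 members, pathway genes called in any comparison or among the 3 highest by FPKM in their list, called activity-induced genes with Fos, Arc, Npas4 and Bdnf, and the 6 genes most like Inhba by each measure (mean of 1 CPM or more). Intervals cover the spread between libraries only.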

Additional observations from a re-analysis of the deposited data

Results flagged for a closer look

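Inhba in Control replicate 2 stood at 5.899 CPM, against 7.185 to 7.440 CPM in the other 3 Control libraries. Its gap to the nearest of them was 0.8345 of the range of the group, above the critical value of 0.829 for 4 samples. It was the only value past that limit among 24 sets of 1 member in 1 group, and chance alone marks about 1 in 20 such sets. Without this library the log2 fold change of Inhba in Model against Control was 0.76.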

How the results depend on the processing

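The number of genes called moved with the setting. In Treatment against Model 350 genes were called, against 1091 with DESeq2, 1090 with no filter, 137 with only the 8 libraries compared, 132 without Treatment replicates 2 and 3, 180 with the length offset and 0 to 459 without single libraries. In Model against Control 147 were called, against 751 with DESeq2, 783 with no filter, 452 with only the 8 libraries, 284 without Treatment replicates 2 and 3, 40 with the length offset and 8 to 273 without single libraries. In Treatment against Control 19 were called, against 12 with RLE scaling, 443 with DESeq2, 748 with no filter, 2 with only the 8 libraries, 130 without Treatment replicates 2 and 3 and 0 to 73 without single libraries (0 in edgeR without Control replicate 1, with 2113 at an unadjusted p under 0.05). With the replicate number as a block 431, 228 and 118 genes were called in these comparisons. The numbers share no stated litter or day, and the correlation of same-numbered deviations was -0.04 to 0.111, so the libraries were not taken as paired.

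Of 399 results of the 7 members other than Inhba under an alternative, 382 kept their direction and their side of the threshold and 17 changed sign, none of them with a call. DESeq2 gave Fst no adjusted p in Model against Control or Treatment against Control, so only its direction could be compared there. The log2 fold change of Inhba, given as a description, ranged over 0.72 to 1.00 in Model against Control, 0.47 to 0.94 in Treatment against Control and -0.37 to -0.05 in Treatment against Model. Without single libraries, these log2 fold changes ran through 0. In Model against Control Inhbb ranged over -0.0447 to 0.1527 (negative without Model replicate 4). In Treatment against Control Inhbb ranged over -0.0942 to 0.0055 (positive without Control replicate 1), Acvr1c over -0.1214 to 0.1143 (negative without Control replicate 2 or Treatment replicate 1 or 4) and Acvr2a over -0.0101 to 0.1142 (negative without Treatment replicate 1). In Treatment against Model Acvr1 ranged over -0.059 to 0.0186 (positive without Model replicate 3 or 4 or Treatment replicate 2), Acvr2a over -0.0745 to 0.0403 (positive without Treatment replicate 2), Fst over -0.0624 to 0.2001 (negative without Model replicate 1 or Treatment replicate 1 or 3) and Fosb over -0.1052 to 0.0079 (positive without Model replicate 2 or Treatment replicate 3). Acvr1c in Treatment against Control turned to -0.0002 with the replicate block and -0.0256 with the length offset, which turned Fosb in Treatment against Model to 0.0116. Without Treatment replicates 2 and 3, Acvr1c, Acvr2a and Homer1 in Treatment against Model turned to 0.0647, 0.0844 and 0.0372. The cause of these shifts was not tested. Fst had 20 to 62 counts a library and Acvr2b 59 to 153, and single libraries moved both.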
